A study of Rattus norvegicus with 57 samples.

Results

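Gene expression in the kidney cortex of rats given a single intraperitoneal dose of 3 mg/kg cisplatin was compared with that of rats given 1 mg/kg, both 8 days after dosing. The comparison took the 5 arrays titled 3 mg/kg and the 5 titled 1 mg/kg on day 8, 10 of the 57 arrays of the series, by title alone. All animals were male rats of the strain Han Wistar [Crl:WI(Han)], aged 8 weeks, with cisplatin given in saline. Saline controls did not enter the test. The 5 control arrays of day 8 serve below only as a reference level. Each array held RNA of 1 animal, from a homogenate enriched in cortex. The study also sampled days 3, 5 and 26, and its design text names 6 rats per group, of which 5 were analysed here on day 8. A homogenate mixes all cell types of the cortex, so fewer cells of a type and less RNA per cell cannot be told apart in any result below.

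Cisplatin is a platinum compound that crosslinks DNA. It enters the cells of the proximal tubule largely through the organic cation transporter encoded by Slc22a2, and the tubule is the main site of its toxicity in the kidney. DNA damage activates the transcription factor p53. Injured tubule cells are known to switch on genes such as Havcr1 and Lcn2 and to reduce the expression of the transporters and enzymes of the mature nephron.

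Levels are MAS5 signals, a linear brightness per probe set that had been scaled to a common level on every array. Differences are 3 minus 1 mg/kg of log2(signal + 16), with the standard error (SE) of the fit and n = 5 per group. The added 16 damps noise and makes the differences of dim genes smaller than those of their signals. A gene was called where its limma p, adjusted by Benjamini-Hochberg over all 11683 genes tested, was under 0.05.

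The animals of each dose were not alike. On the first principal component of the 15 day 8 arrays, which held 46.8% of the variance, the controls scored from -19.09 to -15.03. The 1 mg/kg replicates 2, 4 and 5 lay next to them at -13.27, -13.11 and -11.74, whereas replicates 1 and 3 scored -4.29 and 5.96. Of the 3 mg/kg animals, replicates 2, 4 and 5 scored 36.79, 31.54 and 31.51, and replicates 1 and 3 scored 12.41 and 6.04. Replicate 3 of the higher dose thus lay next to replicate 3 of the lower dose on this component. Within the groups arrays correlated at 0.973 to 0.99 at 3 mg/kg and at 0.986 to 0.993 at 1 mg/kg. The actin 3'/5' signal ratio, a measure of RNA integrity, was 8.58 in replicate 1 of 1 mg/kg and 4.52 to 6.01 in its other arrays, against 4.59 to 5.87 at 3 mg/kg.

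**Figure D1:**
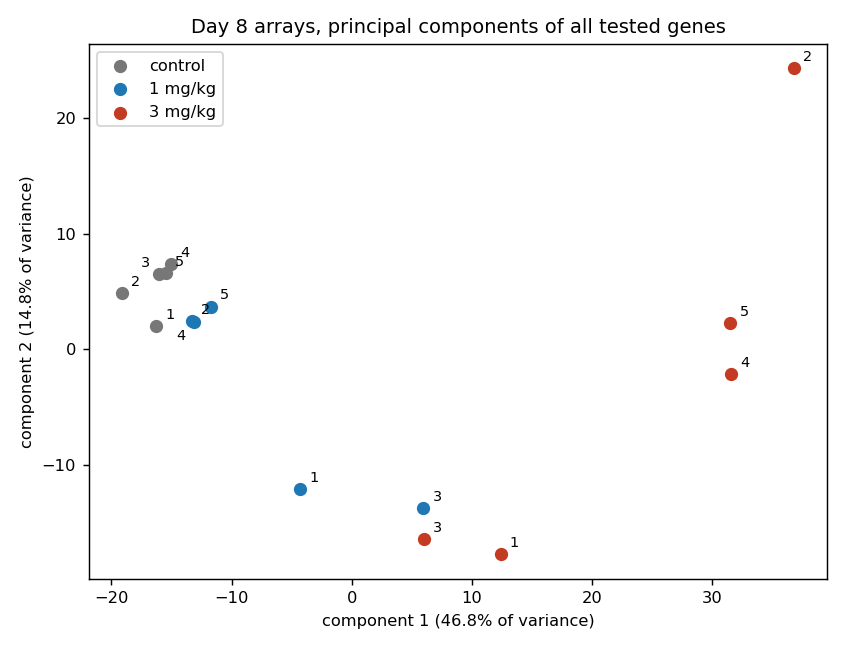
Scores of the 15 day 8 arrays on the first and second principal components of log2(signal + 16) over all tested genes, with the replicate number beside each point. Replicates 2, 4 and 5 of 1 mg/kg sit beside the controls, replicates 1 and 3 of both doses lie in the middle, and replicates 2, 4 and 5 of 3 mg/kg score above 31.

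Of the 11683 genes, 535 (4.58%) were called. The 3 mg/kg animals had the higher level in 246 (2.11%) and the lower level in 289 (2.47%). At least a 2-fold difference was reached by 43 of the higher and 64 of the lower ones, and 358 of the 535 had no overlap between the groups. Over all genes, 5.84% had no such overlap, 2.99% with the 3 mg/kg arrays higher and 2.85% with them lower. The count rested on single arrays. Leaving out replicate 1, 2, 3, 4 or 5 of 1 mg/kg gave 225, 1, 876, 1 and 1 called genes, and leaving out those of 3 mg/kg gave 607, 196, 1240, 5 and 2. Unadjusted p-values under 0.05 numbered 2702 with all arrays and at least 2106 without any of them. With the actin ratio as a covariate 1 gene was called, at 2354 unadjusted. None of the 82 called genes chosen by the naming rule changed sign in any of the 24 alternative settings. They were chosen by their difference on these same arrays, so a stable sign follows largely from the choice. Their calls were less stable, and 1 of them, Phlda2, kept its call in every setting. The calls below are therefore those of the full set of 10 arrays. The shares over all genes, 4.58% called and 5.84% without overlap, are the reference for every list count below.

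Phlda2, an imprinted gene known for restraining placental growth, had signals of 172.5, 240.1, 195.5, 340.6 and 211.8 in replicates 1 to 5 of 3 mg/kg and of 64.16, 58.70, 89.20, 65.66 and 67.28 in those of 1 mg/kg. Every animal of the higher dose lay above every animal of the lower dose and above the controls, whose highest signal was 79.68. The difference was 1.52 ± 0.16 (adjusted p = 0.00585), the smallest adjusted p of all genes tested. The median of the controls was 75.51, within the 1 mg/kg range.

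In the p53 target list, 6 of the 21 tested genes were higher and 1 was lower at 3 mg/kg, and the list median was 0.26 against 0.02 over all genes. Cdkn1a, which encodes the cell cycle inhibitor p21, had signals of 285.3, 381.3, 250.5, 573.8 and 546.6 at 3 mg/kg and of 223.8, 94.88, 196.6, 145.8 and 109.5 at 1 mg/kg. Both groups lay above the highest control, 67.76, and did not overlap. Its difference was 1.31 ± 0.26 (adjusted p = 0.0283). Ccng1, encoding cyclin G1, ran from 1710 to 2853 at 3 mg/kg, from 1019 to 1197 at 1 mg/kg and from 663.9 to 809.3 in the controls, 3 separate steps. It differed by 0.87 ± 0.13 (adjusted p = 0.0209).

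Plk2, a stress-induced kinase, was higher by 1.05 ± 0.22 and Phlda3, an inhibitor of Akt signalling, by 0.93 ± 0.18 (both adjusted p = 0.0283), again without overlap. The nuclease gene Aen, a list member outside the naming rule, was higher by 0.62 ± 0.10 (adjusted p = 0.022). Mdm2 encodes the ligase that degrades p53. Its 3 mg/kg signals of 365.5 to 438.9 met the 1 mg/kg range of 245.6 to 367.2 in a single array, replicate 3 of 1 mg/kg, and the difference was 0.43 ± 0.11 (adjusted p = 0.0431). The single member that was lower was Sesn1, a stress-induced sestrin, also outside the naming rule. Its signals were 98.95, 75.98, 105.9, 89.33 and 77.06 at 3 mg/kg and 118.2, 136.5, 133.1, 128.9 and 123.1 at 1 mg/kg, and it fell by 0.46 ± 0.09 (adjusted p = 0.0283). The groups did not overlap, and the control median of 140.8 lay above both.

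Among 27 tubular injury markers, 9 were higher and 2 lower, with a list median of 0.77, and 25 of the 27 had a difference above 0. Havcr1, encoding KIM-1 of the injured proximal tubule, had signals of 2177, 829.5, 679.7, 1581 and 1640 at 3 mg/kg. At 1 mg/kg its signals were 911.8, 32.39, 1085, 32.88 and 17.59, and no control exceeded 10.23. Replicates 1 and 3 of 1 mg/kg thus lay within the 3 mg/kg range, and the other 3 animals lay far under it. The mean difference of 3.07 ± 0.95 missed the threshold (adjusted p = 0.0801), with a 95% interval of 1.00 to 5.14, and the exact permutation test gave p = 0.0476, or 0.0752 adjusted over the 30 genes tested in that way.

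Lcn2, encoding the lipocalin NGAL, showed the same 2 animals apart, with 181.0, 27.29, 228.7, 32.70 and 28.50 at 1 mg/kg against 595.3, 218.5, 257.1, 424.9 and 441.6 at 3 mg/kg. It was higher by 2.15 ± 0.51 (adjusted p = 0.0393), with an overlap of 1 array in each group. Clu, encoding the secreted chaperone clusterin, reached 1113 and 2365 in replicates 1 and 3 of 1 mg/kg, where the others lay between 193.9 and 212.4, and it ran from 1581 to 3608 at 3 mg/kg. The difference of 2.33 ± 0.62 missed the threshold in limma (adjusted p = 0.054). The exact permutation test gave an adjusted p of 0.0446, but adjusted over only 30 chosen genes. Spp1, encoding osteopontin, had 1400 to 4219 at 1 mg/kg and 3130 to 4984 at 3 mg/kg, against 419.5 to 931.0 in controls. Its difference of 0.77 ± 0.26 did not pass (adjusted p = 0.0983).

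Timp1, encoding an inhibitor of matrix metalloproteinases, had signals of 335.8, 345.6, 223.9, 283.6 and 306.9 at 3 mg/kg and 131.5, 39.98, 223.8, 62.65 and 41.72 at 1 mg/kg. The 2 replicates numbered 3 met at the border of the groups. Timp1 was higher by 1.67 ± 0.35 (adjusted p = 0.029). Krt18, a keratin of simple epithelia, did not overlap and was higher by 1.50 ± 0.27 (adjusted p = 0.0246), with 221.4 to 805.0 at 3 mg/kg and 110.6 to 175.5 at 1 mg/kg. Gpnmb, a membrane glycoprotein of phagocytes and injured tubules, was higher by 2.37 ± 0.51 (adjusted p = 0.03), and Tnfrsf12a, the receptor for the cytokine TWEAK, by 1.75 ± 0.38 (adjusted p = 0.0313). The remaining higher members, outside the naming rule, were S100a6 at 1.68 ± 0.34, Lgals3 at 1.13 ± 0.22, S100a11 at 0.90 ± 0.16 and Krt19 at 0.86 ± 0.22, with adjusted p-values of 0.0246 to 0.0489.

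The other called members of the injury list were lower at 3 mg/kg. Tff3, a trefoil peptide of epithelia, had 394.0, 30.50, 331.6, 49.34 and 68.28 at 3 mg/kg against 1252, 1038, 300.3, 1160 and 717.0 at 1 mg/kg, and fell by 2.66 ± 0.61 (adjusted p = 0.036). The exception at 1 mg/kg was replicate 3, which lay within the range of the higher dose. Krt7, outside the naming rule, fell by 0.52 ± 0.10 (adjusted p = 0.0246). Vim, encoding the filament protein vimentin, had a difference of 0.57 ± 0.18 that did not pass in limma (adjusted p = 0.0801). The exact permutation test gave an adjusted p of 0.0446, but adjusted over only 30 chosen genes. Krt20 was dim in all animals, with no signal above 15.19 and a difference of 0.18 ± 0.12 (adjusted p = 0.381).

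**Figure D2:**
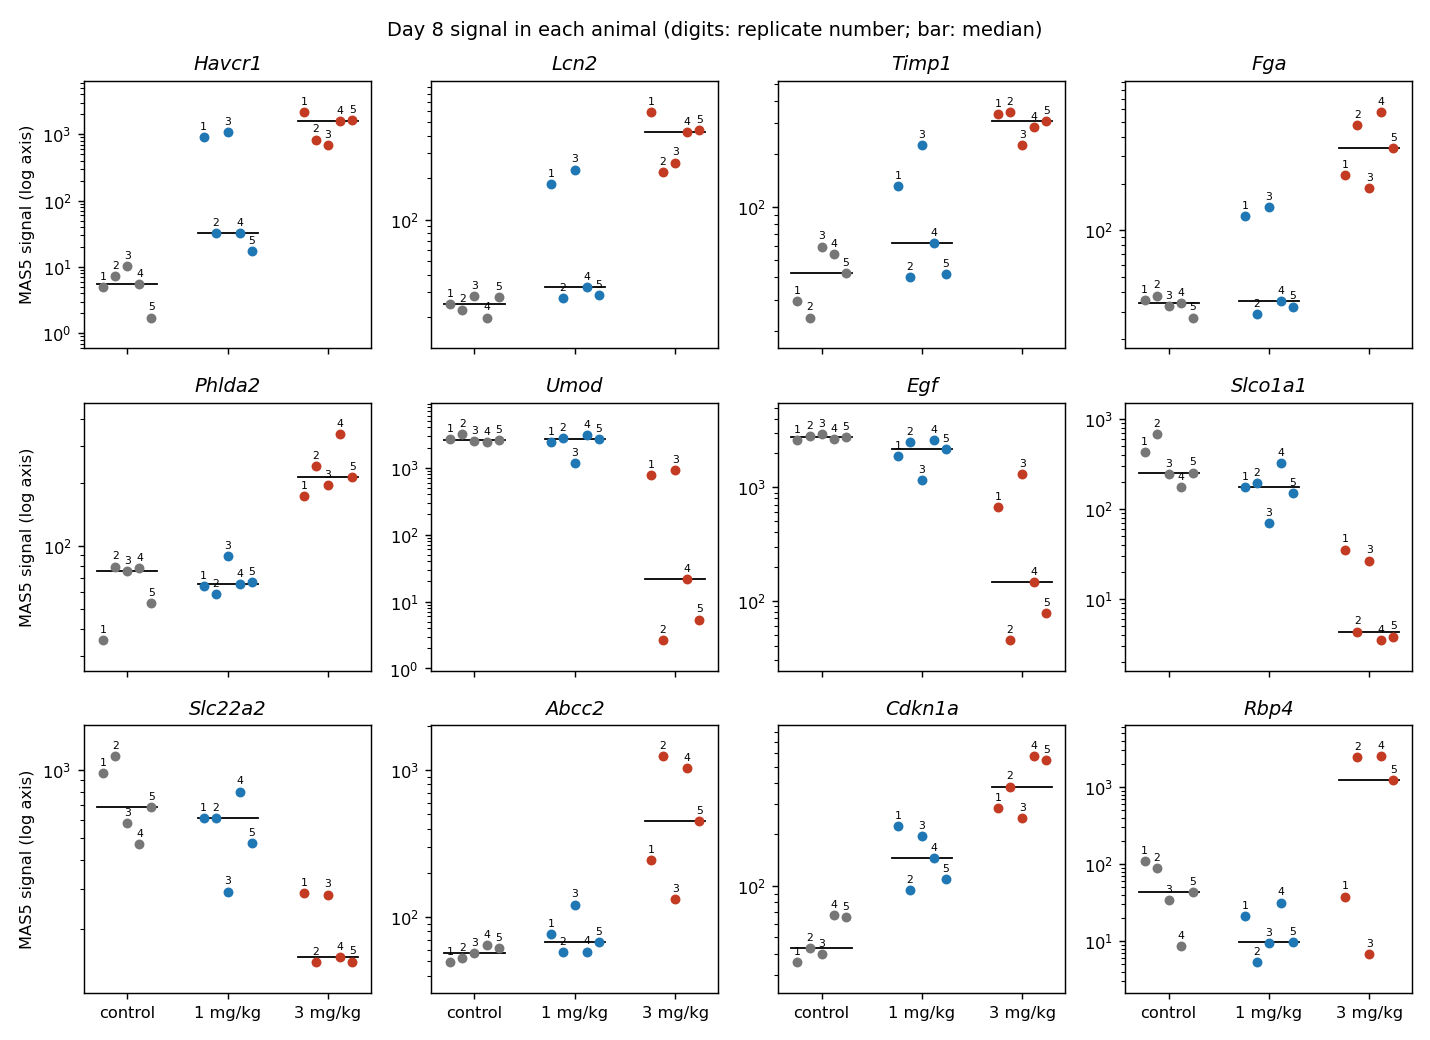
MAS5 signal on day 8 (log axis) of 12 genes in each control, 1 mg/kg and 3 mg/kg animal, with the replicate number at each point and the group median as a bar. Havcr1 and Lcn2 are high in replicates 1 and 3 of 1 mg/kg, and Umod, Egf and Slco1a1 are lowest in replicates 2, 4 and 5 of 3 mg/kg.

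The acute phase and coagulation list had 4 of 13 members higher and 0 lower, with a median of 0.45. The 4 included all 3 chains of fibrinogen, the clotting protein, which the liver makes and which injured tubules are known to express. Fga had signals of 226.4, 473.2, 186.3, 578.0 and 338.6 at 3 mg/kg and of 123.1, 28.92, 141.8, 34.91 and 32.28 at 1 mg/kg. The groups did not overlap, and replicates 1 and 3 of 1 mg/kg again stood above the other 3, which lay at the control level of 27.45 to 37.98. Fga was higher by 2.21 ± 0.41 (adjusted p = 0.0246).

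Fgb ran from 64.94 to 235.1 at 3 mg/kg, was at 48.11 and 86.71 in replicates 1 and 3 of 1 mg/kg and was at most 11.98 in the other 3 and 10.58 in the controls. Its difference was 2.03 ± 0.42 (adjusted p = 0.0283). Fgg, the dimmest of the 3, was higher by 1.20 ± 0.26 (adjusted p = 0.0313). Cp, encoding the copper-carrying plasma protein ceruloplasmin, was higher by 1.00 ± 0.22 (adjusted p = 0.0333), with 554.1 to 818.5 against 225.1 to 550.7. Of the liver markers, Alb, Ttr and Serpina1 had mean signals under 16 in all 3 day 8 groups.

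The 3 fibrinogen genes lie close together on rat chromosome 2 and moved together in these animals, so the 250 bases before their start sites are shown from RefSeq (GRCr8), with matches to the interleukin-6 response element CTGGGAA in capitals. They are Fga at chr2:170671919-170672168 on the + strand, Fgb at chr2:170700876-170701125 on the - strand and Fgg at chr2:170652833-170653082 on the + strand.
Fga: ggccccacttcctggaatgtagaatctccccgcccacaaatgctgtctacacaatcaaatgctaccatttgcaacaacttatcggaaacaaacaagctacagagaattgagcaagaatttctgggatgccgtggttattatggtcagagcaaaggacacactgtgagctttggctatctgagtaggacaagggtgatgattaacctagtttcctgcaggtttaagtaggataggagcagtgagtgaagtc
Fgb: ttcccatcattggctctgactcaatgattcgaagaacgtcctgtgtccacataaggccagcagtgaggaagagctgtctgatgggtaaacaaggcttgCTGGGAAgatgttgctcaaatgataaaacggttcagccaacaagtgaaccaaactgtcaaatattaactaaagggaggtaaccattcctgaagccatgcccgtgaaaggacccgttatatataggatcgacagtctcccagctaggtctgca
Fgg: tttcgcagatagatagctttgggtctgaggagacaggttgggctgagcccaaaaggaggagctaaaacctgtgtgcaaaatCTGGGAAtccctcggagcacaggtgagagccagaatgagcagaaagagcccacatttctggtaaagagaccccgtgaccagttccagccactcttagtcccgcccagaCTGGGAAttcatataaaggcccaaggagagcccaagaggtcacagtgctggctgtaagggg
Both strands were searched. Fgb had a match at bases -152 to -146 from its start site, and Fgg had matches at -169 to -163 and -61 to -55. Neither of the 2 Fga start sites in the table had one in its window. The motif occurred in 9.56% of 33469 rat promoters of this length, and a match is a description of the letters, not a site.

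Of 21 antioxidant genes of the NRF2 list, 5 were higher and 1 lower, with a median of 0.26. The groups did not overlap in 8 members, all higher, against 2.99% of all genes higher without overlap. NRF2 is a transcription factor that induces detoxifying enzymes. Srxn1, encoding sulfiredoxin, which reactivates peroxiredoxins, had signals of 186.9, 539.5, 101.0, 539.2 and 223.9 at 3 mg/kg and 87.11, 58.63, 75.90, 65.76 and 59.70 at 1 mg/kg. It was higher by 1.73 ± 0.37 (adjusted p = 0.03), highest in replicates 2 and 4. Akr1b8, an aldo-keto reductase with close relatives whose probes may cross-hybridise, was higher by 1.51 ± 0.29 (adjusted p = 0.0256). Nqo1, a quinone reductase, was at 113.5 to 336.3 against 53.98 to 89.46 and was higher by 1.17 ± 0.24 (adjusted p = 0.0283).

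The glutathione transferase genes Gstp1 and Gsta3, outside the naming rule, were higher by 1.02 ± 0.19 and 0.73 ± 0.13 (both adjusted p = 0.0246), of which Gsta3 has near-identical relatives. The lower member was Gclc, the catalytic subunit of the enzyme that starts glutathione synthesis. Its signals were 1716, 688.4, 1494, 856.1 and 596.2 at 3 mg/kg and 2341, 2378, 1464, 3183 and 2068 at 1 mg/kg, and it fell by 1.16 ± 0.29 (adjusted p = 0.0439). The only overlap came from replicate 3 of 1 mg/kg. Hmox1, encoding heme oxygenase 1, had 55.85 to 153.3 at 3 mg/kg and 43.03 to 78.32 at 1 mg/kg, a difference of 0.45 ± 0.22 that did not pass (adjusted p = 0.242).

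The promoters of Srxn1 and Gstp1 are shown because each carried a match near its start site, in capitals, to a motif of the enhancers through which NRF2 and AP-1 act. Srxn1 lies at chr3:161064562-161064811 on the + strand and Gstp1 at chr1:210769706-210769955 on the - strand (GRCr8).
Srxn1: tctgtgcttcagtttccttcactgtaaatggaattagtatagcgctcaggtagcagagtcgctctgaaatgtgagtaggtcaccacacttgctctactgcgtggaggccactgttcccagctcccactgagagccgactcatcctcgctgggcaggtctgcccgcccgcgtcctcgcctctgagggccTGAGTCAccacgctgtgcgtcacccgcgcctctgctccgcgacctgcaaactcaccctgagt
Gstp1: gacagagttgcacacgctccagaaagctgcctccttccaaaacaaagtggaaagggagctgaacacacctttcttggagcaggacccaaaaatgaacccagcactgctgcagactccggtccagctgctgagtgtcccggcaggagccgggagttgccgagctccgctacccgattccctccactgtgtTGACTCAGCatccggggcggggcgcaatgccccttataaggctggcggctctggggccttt
The capitals mark an AP-1 site (TGANTCA) at -62 to -56 in Srxn1, and in Gstp1 an antioxidant response element (TGACNNNGC) at -61 to -53 that overlaps an AP-1 site at -61 to -55. Of the 5 antioxidant genes that were higher, 2 had a match to the antioxidant element, Gstp1 and 1 of 2 start sites of Gsta3, and 2 had an AP-1 match. Of all 33469 promoters, 10.08% had the antioxidant element and 6.34% the AP-1 site, on either strand.

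Of 21 genes of the thick ascending limb and distal tubule, 7 fell, 0 were called higher and 14 were not called, of which 4 had a difference above 0. The list median was -1.06. Umod encodes uromodulin, the most abundant protein of normal urine, made by the thick ascending limb. Its signals were 785.5, 2.68, 921.0, 21.59 and 5.37 at 3 mg/kg and 2424, 2796, 1157, 3075 and 2681 at 1 mg/kg, with 2393 to 3177 in the controls. Replicates 2, 4 and 5 of 3 mg/kg had almost none of the signal, replicates 1 and 3 had a reduced one, and replicate 3 of 1 mg/kg was the lowest of its group. Umod fell by 4.50 ± 1.06 (adjusted p = 0.0393; exact permutation p = 0.00794, the smallest that 5 against 5 arrays can give).

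Egf, encoding epidermal growth factor, had 668.7, 45.02, 1314, 144.8 and 78.07 at 3 mg/kg against 1884, 2492, 1165, 2597 and 2183 at 1 mg/kg. Replicate 3 of each dose crossed over, and Egf fell by 3.05 ± 0.72 (adjusted p = 0.0393). Slc12a1, encoding the sodium-potassium-chloride cotransporter NKCC2, was at 1189, 25.82, 1160, 235.9 and 76.18 at 3 mg/kg and at 1589, 1559, 961.9, 1839 and 1613 at 1 mg/kg. The spread among the 3 mg/kg animals was wide, and the difference of -2.48 ± 0.80 missed the threshold in limma (adjusted p = 0.0907), with an exact permutation p of 0.0446 adjusted over 30 genes.

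Ppp1r1a, an inhibitor of protein phosphatase 1, fell by 2.93 ± 0.67 (adjusted p = 0.0352), from 224.9 to 824.9 at 1 mg/kg to 10.24 to 269.3 at 3 mg/kg. A pair of calcium handling genes of the distal tubule fell without overlap. Slc8a1, a sodium-calcium exchanger, fell by 1.84 ± 0.41 (adjusted p = 0.0326), and Calb1, the calcium-binding protein calbindin, by 1.45 ± 0.30 (adjusted p = 0.0283). Calb1 was at 1610 and 1565 in replicates 1 and 3 of 3 mg/kg and at 570.5 to 634.1 in the other 3, against at least 1921 at 1 mg/kg. Outside the naming rule, the kallikrein gene Klk1 fell by 1.67 ± 0.33 and the kinase gene Wnk1 by 1.06 ± 0.22. The collecting duct list had 2 of 16 members lower, Hsd11b2, which inactivates glucocorticoids (-0.69 ± 0.16, adjusted p = 0.0393), and the proton pump subunit Atp6v1b1 (-0.68 ± 0.14, adjusted p = 0.0283), and its median was -0.32.

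Of 46 proximal tubule transporters, 13 fell and 2 were higher, with a median of -0.15. Slco1a1, a transporter of organic anions, had signals of 35.41, 4.32, 26.68, 3.51 and 3.81 at 3 mg/kg and of 175.5, 192.7, 69.58, 321.9 and 149.0 at 1 mg/kg, against 176.2 to 679.7 in controls. All 5 animals of the higher dose lay under all 5 of the lower, and Slco1a1 fell by 2.69 ± 0.37 (adjusted p = 0.0207). The related Slco1a6 and Slco1a3 fell by 3.05 ± 0.63 (adjusted p = 0.0283) and 2.12 ± 0.52 (adjusted p = 0.0423), but their sequences are so alike that the 3 probe sets may share signal.

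Slc22a2, the cation transporter that carries cisplatin into the cell, was at 287.8, 142.8, 282.6, 150.7 and 143.5 at 3 mg/kg and at 611.9, 612.7, 291.4, 802.5 and 477.7 at 1 mg/kg. It fell by 1.40 ± 0.27 (adjusted p = 0.0261) without overlap, although replicate 3 of 1 mg/kg came within a few units of the higher dose. The amino acid transporter Slc7a13 fell by 2.15 ± 0.55 (adjusted p = 0.0483). Further falls outside the naming rule included the glucose transporter Slc5a2 by 1.19 ± 0.25, the sodium-proton exchanger Slc9a3 by 1.08 ± 0.25 and the monocarboxylate transporter Slc16a7 by 0.91 ± 0.17, with adjusted p-values of 0.0253 to 0.0382. The higher members were the phosphate and anion transporters Slc17a3 at 1.03 ± 0.14 (adjusted p = 0.0207) and Slc17a1 at 0.87 ± 0.16 (adjusted p = 0.0246), also outside the rule.

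Genes of the proximal tubule with high signals at both doses included Slc34a1, Slc22a6 and Hnf4a, none of which was called. Slc34a1, encoding the main phosphate cotransporter, ran from 3839 to 4031 at 3 mg/kg and from 3391 to 4051 at 1 mg/kg, a difference of 0.07 ± 0.06 (adjusted p = 0.523; 95% interval -0.06 to 0.21). The organic anion transporter gene Slc22a6 differed by -0.03 ± 0.15 (adjusted p = 0.929; interval -0.37 to 0.31). Hnf4a, a transcription factor of proximal tubule identity, differed by 0.01 ± 0.08 (adjusted p = 0.97; interval -0.16 to 0.18). The sign of all 3 turned under some alternatives. With the mean of the probe sets of a gene, Hnf4a was at -0.42 and Slc34a1 at -0.12, both below these intervals. The intervals thus hold only for the probe set that stood for each gene.

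Proximal tubule enzymes had 6 of 39 members lower, 1 higher and a median of -0.06. Hnmt, which methylates histamine, had 92.28, 6.87, 105.0, 11.73 and 9.24 at 3 mg/kg and 325.9, 345.4, 104.9, 491.7 and 166.3 at 1 mg/kg. Replicates 2, 4 and 5 of 3 mg/kg were the lowest, and Hnmt fell by 2.54 ± 0.54 (adjusted p = 0.0298). Of the brush border peptidases on the list, these fell: Mep1b, a meprin subunit, by 1.99 ± 0.47 (adjusted p = 0.0395), Mme, neprilysin, by 1.60 ± 0.40 (adjusted p = 0.0456) and Anpep, aminopeptidase N, which the naming rule did not choose, by 1.06 ± 0.22 (adjusted p = 0.029). Mep1a, Dpp4, Enpep, Ace, Xpnpep2 and Ggt1 were not called, with differences of -0.33 to 0.72. The others that fell were the calcium-binding protein regucalcin, Rgn, by 1.80 ± 0.45 (adjusted p = 0.0442) and, outside the rule, Dpyd by 0.51 ± 0.12. The higher member was the cytochrome Cyp2e1, outside the rule, at 2353 to 5154 against 1608 to 2257, a difference of 0.93 ± 0.18 (adjusted p = 0.0271).

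Efflux pumps carry drugs and conjugates out of the cell, and 3 of 13 members of their list were higher, 0 lower and a median of 0.10. Abcc2, encoding the apical pump MRP2, had 244.0, 1241, 133.1, 1035 and 450.2 at 3 mg/kg and 76.82, 57.56, 121.6, 58.27 and 68.03 at 1 mg/kg. It was higher by 2.40 ± 0.50 (adjusted p = 0.029), most of all in replicates 2 and 4. The P-glycoprotein gene Abcb1a was higher by 0.99 ± 0.19 (adjusted p = 0.0261), with 82.53 to 182.8 against 38.79 to 60.94. Abcc3, a pump of the basolateral membrane, was higher by 0.52 ± 0.12 (adjusted p = 0.0358).

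In the fatty acid oxidation and PPAR list, 4 of 30 members were higher, 0 lower, and the median was 0.30. The groups did not overlap in 6 members, all higher, against 2.99% of all genes higher without overlap. Vnn1, a pantetheinase and PPAR alpha target, had signals of 1358, 2283, 1144, 4113 and 4364 at 3 mg/kg and 805.1, 756.3, 1018, 619.4 and 855.6 at 1 mg/kg, and was higher by 1.50 ± 0.34 (adjusted p = 0.0348). Replicates 4 and 5 were the highest. Cyp4a1, which hydroxylates fatty acids, was at 1263 to 2481 against 699.7 to 1118 and higher by 1.02 ± 0.17 (adjusted p = 0.0221), while its near relative Cyp4a3 was higher by 0.44 ± 0.09 (adjusted p = 0.0298). Probes of these 2 may share signal. Eci1, a mitochondrial enzyme of unsaturated fatty acid oxidation, was higher by 0.83 ± 0.20 (adjusted p = 0.0395). Of the 23 subunits of oxidative phosphorylation 0 were called, and they spanned -0.25 to 0.18.

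**Figure D3:**
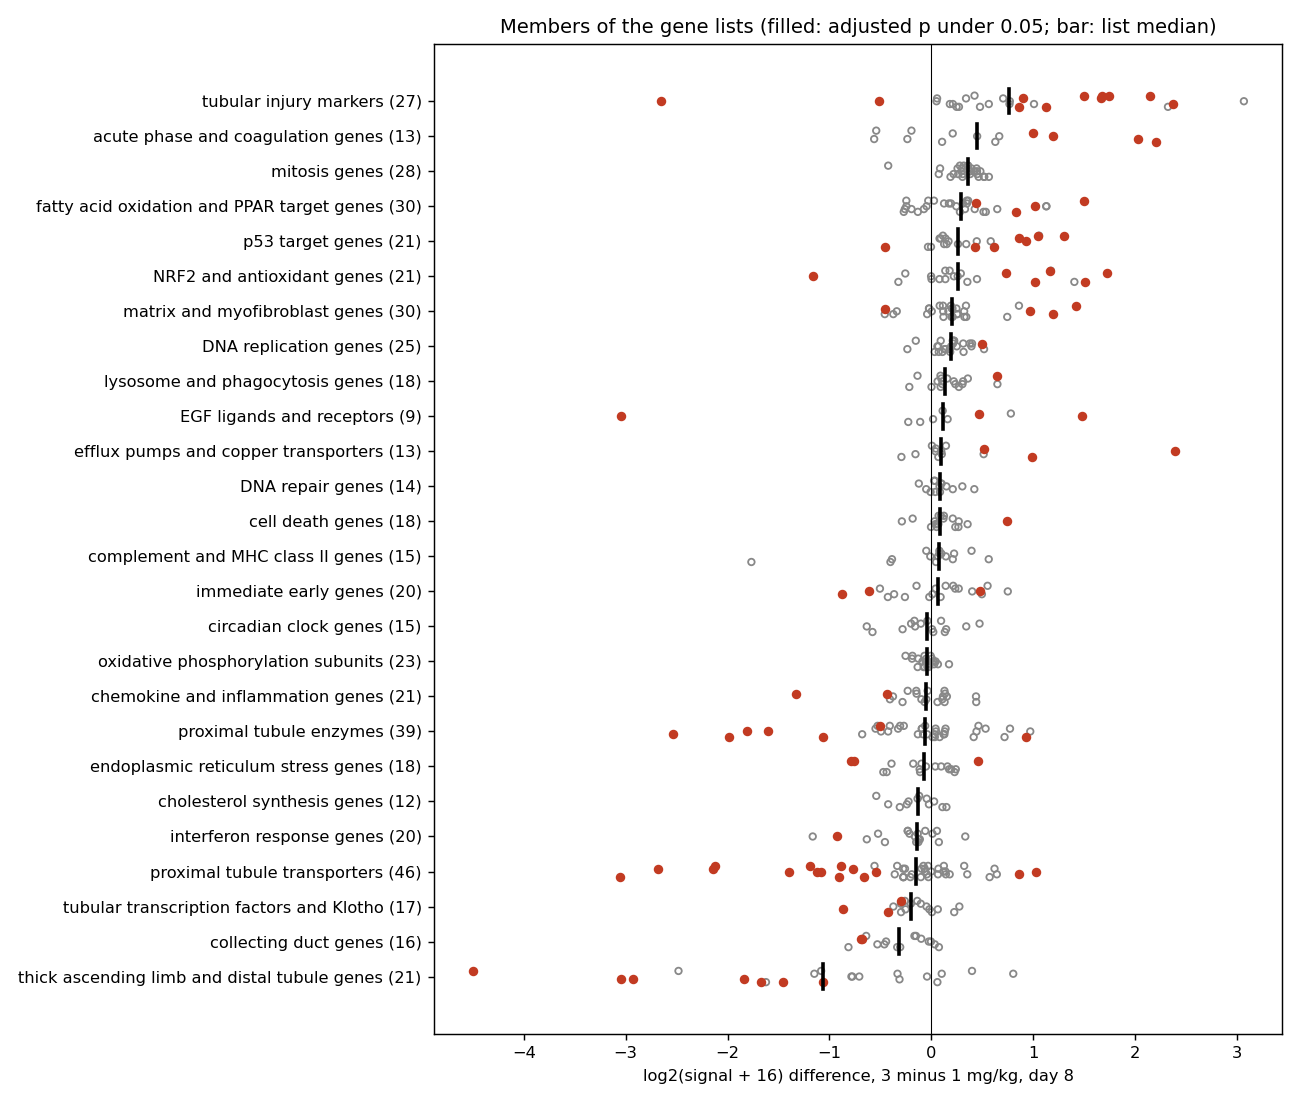
Difference of log2(signal + 16), 3 minus 1 mg/kg on day 8, for each tested member of 26 gene lists, with the number tested in brackets. Filled points have an adjusted p under 0.05 and bars are list medians, which run from -1.06 for thick ascending limb and distal tubule genes to 0.77 for tubular injury markers.

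Ligands of the epidermal growth factor receptor family went in opposite directions. Whereas Egf fell, Nrg1, encoding neuregulin 1, was at 105.0, 276.4, 77.42, 298.0 and 164.6 at 3 mg/kg and at 58.68, 45.46, 70.78, 37.94 and 35.63 at 1 mg/kg. The groups did not overlap and the difference was 1.48 ± 0.31 (adjusted p = 0.029). Tgfa was higher by 0.47 ± 0.10 (adjusted p = 0.0298), with 31.27 to 44.85 against 19.58 to 29.59. Its call was lost with the mean of the probe sets of a gene, though the sign stayed. Egf, Nrg1 and Tgfa were the 3 called of 9 tested ligands and receptors, whose median was 0.11.

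Among 17 tubular transcription factors and Klotho, 3 fell, 0 were called higher and the median was -0.20. Kl encodes klotho, the coreceptor of the phosphate-regulating hormone FGF23. Its signals were 101.6, 53.70, 94.18, 51.91 and 59.46 at 3 mg/kg, 117.5, 150.8, 119.7, 167.1 and 153.2 at 1 mg/kg and 162.1 to 242.6 in the controls. The groups did not overlap, and Kl fell by 0.87 ± 0.17 (adjusted p = 0.0261). The bile acid receptor gene Nr1h4 fell by 0.43 ± 0.10 (adjusted p = 0.0423) and the factor Maf by 0.30 ± 0.08 (adjusted p = 0.0495).

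Of 30 matrix and myofibroblast genes, 3 were higher and 1 lower, with a median of 0.20. Tnc, encoding tenascin C, was at 114.0 to 191.4 at 3 mg/kg and at 118.8 in replicate 3 of 1 mg/kg, where the other 4 animals had 21.19 to 59.06. It was higher by 1.42 ± 0.29 (adjusted p = 0.0283). Lox, which crosslinks collagen, was higher by 1.19 ± 0.19 (adjusted p = 0.0209) without overlap, at 87.16 to 151.4 against 23.53 to 60.39, and the proteoglycan gene Dcn by 0.97 ± 0.22 (adjusted p = 0.0359). The lower one was Timp3, an inhibitor of metalloproteinases bound to matrix (-0.45 ± 0.11, adjusted p = 0.0395). Col1a1, the main fibrillar collagen chain, differed by 0.19 ± 0.20 (adjusted p = 0.608) and Acta2, smooth muscle actin, by 0.35 ± 0.14 (adjusted p = 0.166). The 6 tested smooth muscle and pericyte markers summed to 1094 to 1265 at 3 mg/kg and to 810.2 to 1108 at 1 mg/kg, with 0 called. Their part in the matrix genes was not tested.

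Of 21 chemokine and inflammation genes, 0 were higher and 2 lower: Ptgs2, encoding the cyclooxygenase COX-2, by -1.33 ± 0.31 (adjusted p = 0.0393) and the chemokine Ccl4 by -0.44 ± 0.11 (adjusted p = 0.0431). Ccl4 was dim, at 12.04 to 18.15 at 3 mg/kg, 19.83 to 35.18 at 1 mg/kg and 13.96 to 23.32 in controls. The 20 interferon response genes had 1 lower, Rsad2, an antiviral enzyme (-0.93 ± 0.23, adjusted p = 0.0459), and the 15 complement and MHC class II genes had 0 called. Over all genes 4.58% were called, so these counts are no result about the lists. Macrophage markers had 1 of 13 higher, the Fc receptor gene Fcgr2b (0.71 ± 0.13, adjusted p = 0.0246), and summed to 2898 to 4480 at 3 mg/kg, 2366 to 4088 at 1 mg/kg and 2408 to 2671 in controls. Cd68 had a difference of 0.48 ± 0.15 that did not pass (adjusted p = 0.0922). The 2 tested neutrophil markers, S100a8 and S100a9, summed to 20.9 to 284.6 at 3 mg/kg and to 10.4 to 37.9 at 1 mg/kg with 0 called, and the 6 lymphocyte markers had 0 called.

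Endothelial markers had 2 of 11 lower, the receptor gene Tie1 (-0.71 ± 0.17, adjusted p = 0.0396) and Emcn, endomucin (-0.38 ± 0.08, adjusted p = 0.0326), and summed to 1859 to 2130 at 3 mg/kg and 1999 to 2413 at 1 mg/kg. The 8 podocyte and 5 red blood cell markers had 0 called. The water channel gene Aqp4, on the inner medulla list, was higher by 1.00 ± 0.15 (adjusted p = 0.0209), at 129.2 to 225.0 against 74.47 to 90.97. That list had 1 of 5 called, summed to 2820 to 3481 against 3171 to 3726, and its urea transporter Slc14a2 had means under 16 in all 3 groups. Of 3 adipocyte markers Fabp4 was higher (0.51 ± 0.12, adjusted p = 0.0393) at signals of at most 25.64. Adrenal markers had means under 16 throughout. In the controls the proximal tubule gene Slc34a1 had signals of 3087 to 3735.

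Of 28 mitosis genes 0 were called, although 27 had a difference above 0 and the median was 0.36. Top2a, the mitotic topoisomerase, had 34.69 to 96.43 at 3 mg/kg and 23.87 to 78.29 at 1 mg/kg (0.52 ± 0.25, adjusted p = 0.243), and the proliferation marker Mki67 differed by 0.31 ± 0.24 (adjusted p = 0.472). In both genes replicates 1 and 3 of each dose had the highest signals. Of 25 DNA replication genes, the origin licensing factor Cdt1 was higher (0.50 ± 0.12, adjusted p = 0.0383), and 0 of 14 DNA repair genes were called. At 4.58% of all genes called, lists of this size would hold few calls. Among 18 cell death genes the tumour necrosis factor receptor Tnfrsf1a was higher (0.75 ± 0.16, adjusted p = 0.0313), at 335.0 to 395.4 against 151.5 to 301.4.

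Of 20 immediate early genes 1 was higher and 2 were lower, with a median of 0.07, where 4.58% of all genes were called. Fosl1, encoding the AP-1 subunit FRA1, was higher by 0.48 ± 0.10 (adjusted p = 0.0313) at low signals of 12.18 to 21.32 against 5.50 to 12.31. Jun, another AP-1 subunit, fell by 0.87 ± 0.20 (adjusted p = 0.0333), and the phosphatase gene Dusp1 by 0.61 ± 0.15 (adjusted p = 0.0439). Fos ran from 68.25 to 489.3 at 3 mg/kg and from 169.4 to 530.4 at 1 mg/kg, a difference of -0.02 ± 0.48 (adjusted p = 0.988) whose sign turned under several alternatives, and Atf3 differed by -0.43 ± 0.39 (adjusted p = 0.545). Of 18 endoplasmic reticulum stress genes, the glutathione-degrading enzyme gene Chac1 was higher (0.46 ± 0.08, adjusted p = 0.0209) and the serine synthesis gene Psat1 (-0.78 ± 0.18, adjusted p = 0.0374) and Herpud1 (-0.76 ± 0.18, adjusted p = 0.0395) were lower. In the lysosome list 1 of 18 was higher, the protease gene Ctsk (0.64 ± 0.13, adjusted p = 0.0283), and 0 of 12 cholesterol synthesis and 0 of 15 clock genes were called. With 4.58% of all genes called, the counts of these last lists are no result about them.

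Outside the lists, the largest differences without overlap included further genes. Scara5, a receptor for ferritin, had signals of 34.67, 47.50, 24.68, 30.08 and 67.53 at 3 mg/kg and at most 10.85 at 1 mg/kg, a difference of 1.21 ± 0.17 (adjusted p = 0.0207). The kinase gene Nek6 was higher by 1.29 ± 0.21 (adjusted p = 0.0218) and the cytochrome Cyp1b1 by 1.19 ± 0.25 (adjusted p = 0.0303). In both genes replicates 1 and 3 were the highest of the 1 mg/kg group.

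On the lower side, Tmem86a, a lysoplasmalogenase, had 88.14, 20.97, 123.9, 37.62 and 56.15 at 3 mg/kg and 235.5, 410.7, 191.2, 393.4 and 416.5 at 1 mg/kg, and fell by 2.18 ± 0.34 (adjusted p = 0.0209). Matn1, a matrilin, fell by 1.92 ± 0.31 (adjusted p = 0.0209), from 26.02 to 118.2 down to 1.42 to 22.21, although its controls spanned 13.46 to 134.1. The other falls of this kind were Asb9 by 1.52, Sbspon by 1.47, Akr1c13 by 1.41, Prps2 by 1.32, Pzp by 1.30, Kcne1 by 1.30 and Nrep by 1.28, with adjusted p-values of 0.0209 to 0.0394.

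**Figure D4:**
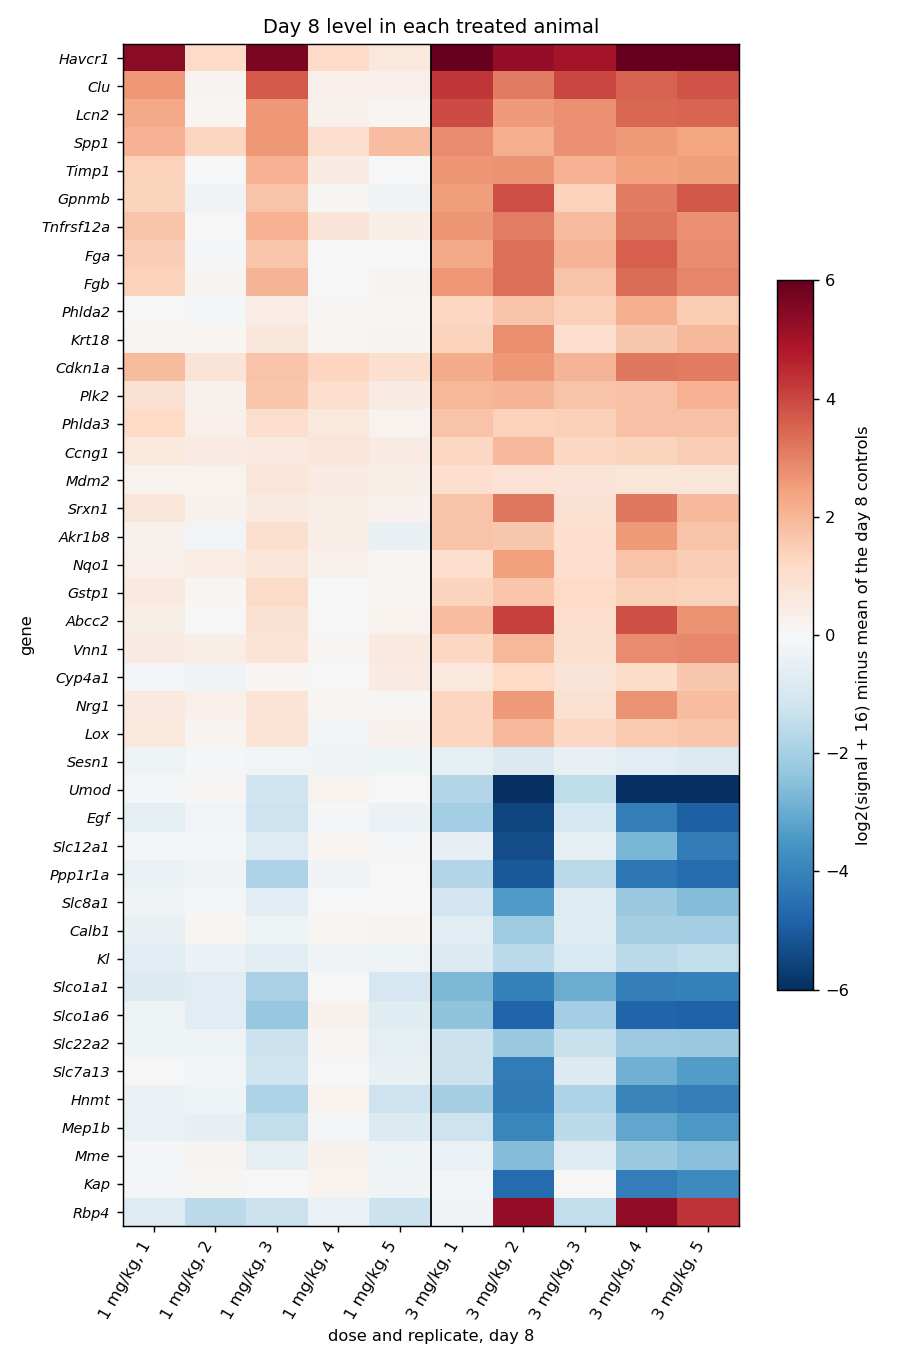
Level of 42 genes in each of the 10 treated animals of day 8, as log2(signal + 16) minus the mean of the day 8 controls (red higher, blue lower, colours clipped at 6 in either direction). Replicates 1 and 3 of 1 mg/kg share the raised Havcr1, Clu and Lcn2 of the higher dose, whereas replicates 2, 4 and 5 of 3 mg/kg have the lowest Umod, Egf and Slco1a6 and the highest Rbp4.

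Spread between animals differed from list to list. The SD of log2(signal + 16) was larger at 3 than at 1 mg/kg in 66.4% of genes, with medians of 0.18 and 0.14 and of 0.12 in controls. For thick ascending limb and distal tubule genes the medians were 0.64 and 0.28, with the larger SD at 3 mg/kg in 20 of 21. Fatty acid oxidation genes had the larger SD at 3 mg/kg in 28 of 30. Tubular injury markers had medians of 0.36 at 3 mg/kg and 0.41 at 1 mg/kg, with the larger SD at 3 mg/kg in 13 of 27. The SD was larger at 3 mg/kg in fewer members than not for mitosis genes (7 of 28), DNA replication genes (9 of 25), matrix genes (9 of 30) and acute phase genes (5 of 13). These are descriptions with no test.

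The 6 widest ranges at 3 mg/kg were those of Umod, which was called, and of Rbp4, RT1-Bb, Slc12a1, Kap and Slc38a3, which were not. Rbp4, the plasma carrier of retinol, had 37.87, 2445, 6.84, 2511 and 1234 at 3 mg/kg, at most 31.70 at 1 mg/kg and at most 110.3 in controls. Its signal was thus high in replicates 2, 4 and 5 and within or under the control range in the other 2, and the difference of 3.71 ± 1.20 missed the threshold (adjusted p = 0.0897). Kap, the androgen-regulated protein of the proximal tubule, had the opposite pattern, with 3449, 145.7, 3987, 205.6 and 260.9 at 3 mg/kg and 3419 to 4482 at 1 mg/kg (-2.53 ± 0.83, adjusted p = 0.0956). The glutamine transporter Slc38a3 reached 2453 in replicate 2 and 56.75 to 567.0 in the others (1.35 ± 0.76, adjusted p = 0.315).

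At 1 mg/kg the widest ranges included Havcr1, Clu, the glucuronosyltransferase Ugt2b7 and 3 genes of antigen presentation or protein tagging. Ugt2b7, one of a family of near-identical genes, was at 24.73, 106.9, 584.0, 26.84 and 146.1 at 1 mg/kg and at 473.6 to 1629 at 3 mg/kg, a difference of 3.12 ± 0.64 (adjusted p = 0.0283). The class II gene RT1-Bb was at 6.05 in replicate 3 of 1 mg/kg and at 391.0 or more in the other 4, but it was also at 0.82 to 7.49 in 3 animals of 3 mg/kg and as low as 3.19 in a control. The class I gene RT1-T24-4 and the ubiquitin-like gene Ubd likewise varied within every group, and these 3 genes were not called.

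The genes above were fitted again without each of the animals numbered 1 and 3, which lay between the others. Havcr1 passed without replicate 3 of 1 mg/kg, at 3.79 (adjusted p = 0.0252), and its difference lay between 2.88 and 3.72 without the other 3 of these arrays, with adjusted p-values of 0.0534 to 0.123. Clu likewise passed without that array, at 2.89 (adjusted p = 0.00884), with 0.0557 to 0.0814 otherwise. Slc12a1 passed without replicate 1 of 3 mg/kg, at -3.02 (adjusted p = 0.043), and without replicate 3 of 3 mg/kg, at -3.02 (adjusted p = 0.0268). Umod and Egf lost their calls without replicate 1 of 1 mg/kg, at -4.48 (adjusted p = 0.0698) and -3.07 (adjusted p = 0.069), and Lcn2 without replicate 1 of 3 mg/kg, at 1.98 (adjusted p = 0.056). Fga, Timp1, Slco1a1 and Cdkn1a passed with each of the 4 left out in turn. Umod, Egf, Lcn2, Fga, Timp1, Slco1a1 and Cdkn1a were called with all arrays. Each of them lost the call without replicate 2, 4 or 5 of 1 mg/kg and without replicate 4 or 5 of 3 mg/kg. The 4 arrays were picked after seeing where they lay, so these refits are no independent check. Of the 82 called genes of the naming rule, 44 kept the call without replicate 1 and 79 without replicate 3 of 1 mg/kg, and 73 and 82 without those of 3 mg/kg. Without replicate 2, 4 or 5 of 1 mg/kg 1 kept it, and without those of 3 mg/kg 30, 2 and 2 did.

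Among the 535 called genes, replicate 3 of 1 mg/kg was the array nearest to the 3 mg/kg side for 341 and replicate 1 for 107. Replicate 3 of 3 mg/kg was the nearest to the 1 mg/kg side for 347 and replicate 1 for 112. The array farthest from the lower dose was replicate 2 of 3 mg/kg for 237 genes, replicate 4 for 146 and replicate 5 for 104. Where the groups of a called gene overlapped, as in 177 genes, replicate 3 was the nearest 1 mg/kg array in 130. These genes were called from the same arrays, and the order of the arrays was not counted over all genes. The counts are thus a description with no test.

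Whether the difference between the doses was itself different on day 8 and day 3 was tested with the 20 arrays of both days. It differed in 418 genes (3.58%), 177 (1.52%) in the positive and 241 (2.06%) in the negative direction, and 218 of them were also called on day 8 alone. These counts moved with single arrays too. Without replicates 1, 2, 3, 4 or 5 of 1 mg/kg on day 8 they were 286, 95, 861, 75 and 83, and without those of 3 mg/kg on day 8 they were 678, 314, 1164, 205 and 77. Leaving out those of 1 mg/kg on day 3 gave 227, 115, 174, 105 and 318, and those of 3 mg/kg on day 3 gave 173, 197, 199, 98 and 188. Unadjusted p-values under 0.05 numbered 2525. The fit took 1 spread per gene from all 20 arrays, although the groups differed in spread. Umod, for instance, had an SD of 2.84 at 3 mg/kg and 0.56 at 1 mg/kg on day 8. For such genes the p-values of this test can be too small. The test of day 8 alone likewise pooled its groups.

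None of the 21 p53 targets passed that test. Over all genes 3.58% passed, so a list of this size would hold few passes. Cdkn1a differed between the doses by 1.42 on day 3 and 1.31 on day 8, a change of -0.11 ± 0.32 (adjusted p = 0.877), and was at 1.55 on day 5 and 0.89 on day 26. Ccng1 changed by 0.02 ± 0.14 (adjusted p = 0.95) and Plk2 by 0.02 ± 0.26 (adjusted p = 0.979) from day 3 to day 8. Phlda3 changed by -0.07 ± 0.23 (adjusted p = 0.893). The difference of Mdm2 was 0.70 on day 3 and 0.43 on day 8, a change of -0.27 ± 0.13 (adjusted p = 0.211). A miss of the threshold does not show that the differences were equal.

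The fibrinogen genes passed it. Fga differed by -0.02 on day 3 and 2.21 on day 8, a change of 2.22 ± 0.46 (adjusted p = 0.0207), with 1.87 on day 5 and 0.32 on day 26. Timp1 changed by 1.79 ± 0.42 (adjusted p = 0.0286). Of the injury markers 5 of 27 passed, against 3.58% of all genes. Havcr1 was not among them, with differences of 1.30, 4.01, 3.07 and 1.95 on the 4 days (change 1.78 ± 1.16, adjusted p = 0.387).

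Thick ascending limb and distal tubule genes passed in 7 of 21, against 3.58% of all genes. Umod differed by 0.12 on day 3 and -4.50 on day 8, a change of -4.62 ± 1.15 (adjusted p = 0.0352), and by -0.22 on day 5 and 0.16 on day 26. Egf changed by -2.92 ± 0.78 (adjusted p = 0.0429) and Slco1a1 by -2.12 ± 0.42 (adjusted p = 0.0185). Over days 3, 5, 8 and 26 the list median was 0.03, -0.15, -1.06 and 0.00. Days 5 and 26 are differences of group means with no test, and day 5 has 3 animals at 1 mg/kg.

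**Figure D5:**
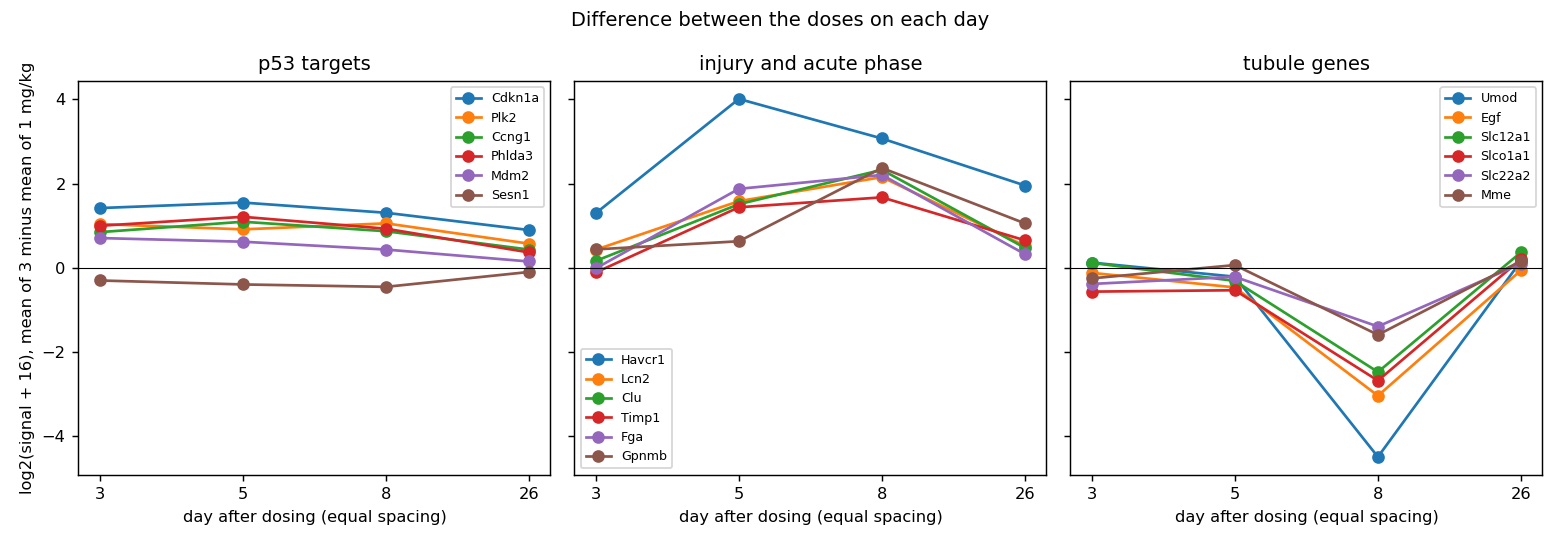
Difference between the group means of 3 and 1 mg/kg in log2(signal + 16) on days 3, 5, 8 and 26 (equally spaced) for p53 targets, injury and acute phase genes, and tubule genes. Cdkn1a lies at 1.42, 1.55 and 1.31 on days 3, 5 and 8, whereas the tubule genes are lowest on day 8 (Umod -4.50).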

How the data were processed

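Kidney RNA of 57 rats was hybridised to Affymetrix Rat 230 2.0 arrays. The deposited intensity values, linear signals per probe set, were made by the authors with MAS5, per the submitters' processing notes; version and settings: not given in the sources used here. On every array a trimmed mean (2% off each side) was 99.94 to 99.95. Of 31099 probe sets, 57 controls were left out, and 20826 had 1 gene symbol, 436 several and 9780 none. Symbols were updated through Entrez number for 20758 and accession for 2, with 66 kept as annotated (GRCr8 RefSeq table, names only). No pair of arrays held identical values. Array number limits the precision.

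Probe sets above the 40th percentile of their array on at least 3 arrays were kept (21829), and the one with the highest mean log2 signal stood for its gene (11683). Tests used limma 3.58.1 in R 4.3.3 on log2(signal + 16) with an intensity trend, two-sided, on 10 arrays for day 8 and on 20 for the change from day 3. The script was tested on simulated data. Exact permutation tests (two-sided) covered 30 genes and were adjusted over those 30 only. Their adjusted p-values cannot be set beside those of limma, which were adjusted over all genes tested. Groups and replicate numbers came from the labels, which call the replicates biological.

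Named genes were the 15 largest higher and 15 largest lower called genes without overlap, up to 4 called members per list, the 6 widest ranges at each dose, and 30 genes named whatever their result. The comparison, gene lists and genes were chosen with earlier results of these data known. Alternatives covered the offset, normalization, filter, probe set rule, variance model, array weights, a replicate block, all arrays in the fit and each array left out. The actin ratio covariate was chosen after seeing the data.

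Replicate numbers were checked for pairing. Same-numbered animals of the 2 doses had deviations that correlated at 0.207, 0.063, -0.074, -0.12 and 0.072. No clear pairing by number was seen, but low correlations do not show that there is none.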

Additional observations from a re-analysis of the deposited data

Results flagged for a closer look

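Each of the 105 named genes was screened in both dose groups for an animal far from the other 4 on the log2(signal + 16) scale, 210 groups in all. This met Dixon's 95% criterion in 13, where chance alone gives about 1 in 20, so the count is near that of chance. The named genes include those with the widest ranges in these same groups, a choice that can favour such flags. Replicate 3 of 1 mg/kg stood apart in 8 of them. It was above its group in Acta2 at 6.62 and Krt18 at 7.58, and under it in Atp6v1b1 at 7.41, Hsd11b2 at 10.18, Ppp1r1a at 7.91, RT1-Bb at 4.46, Slc12a1 at 9.93 and Umod at 10.2. Replicate 1 of 1 mg/kg was high in Asb9 at 7.4 and low in Jun at 10.04, and replicate 4 was high in Rgn at 10.25. At 3 mg/kg, replicate 3 was high in Timp3 at 11.3 and replicate 1 low in Ubd at 4.89.

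The difference between the doses differed between day 8 and day 3, by the interaction test, in 37 of the 105 named genes, against 3.58% of all genes. Many of these genes were named for their day 8 difference, and the test uses the same day 8 arrays. A high share among them thus follows from the choice and is no result about them. The dose difference moved upward on the log2 scale in genes of clotting and injury: Fga by 2.22, Fgb by 2.02, Fgg by 1.59, Timp1 by 1.79 and Krt18 by 1.26. Of the growth factor genes Nrg1 moved up by 1.48 and Tgfa by 0.84, and of the matrix and lysosomal genes Tnc by 1.25, Lox by 1.04 and Ctsk by 0.66. The others that moved up were Vnn1 by 1.65, Aqp4 by 1.46, Nek6 by 1.34, Phlda2 by 1.2, Scara5 by 1.2, Cyp1b1 by 1.06 and Fcgr2b by 0.78.

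The change was negative for genes of the distal nephron, at -4.62 for Umod, -2.98 for Ppp1r1a, -2.92 for Egf, -1.63 for Slc8a1, -1.33 for Calb1, -0.69 for Hsd11b2 and -0.58 for Atp6v1b1. The organic anion transporter Slco1a1 had -2.12, the transcription factor Nr1h4 -0.61, the serine synthesis gene Psat1 -0.8, the endothelial receptor Tie1 -0.84 and Timp3 -0.5. The rest were Tmem86a at -1.71, Asb9 at -1.56, Sbspon at -1.48, Nrep at -1.37, Pzp at -1.34, Akr1c13 at -1.23, Kcne1 at -1.23 and Prps2 at -1.13.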

How the results depend on the processing

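The count of 535 called genes stayed within 1.5 times under 9 alternatives (453 to 604). It moved to 339 with no filter, 1538 with array weights, 2704 with all arrays of the series in the fit, 3 with the replicate block and 1 with the actin ratio covariate, and ran from 1 to 1240 with each array left out. The 418 genes of the change from day 3 became 1221 with array weights, 1442 with all arrays, 33 with the actin ratio covariate and 75 to 1164 with each array left out. With the replicate block limma called 0, at 2455 unadjusted p-values under 0.05 and a smallest adjusted p of 0.0573. Replicate numbers are shared between the doses, and whether they pair the animals could not be settled from the deviations. Of the 82 called named genes, 82 kept the call with an offset of 64, 72 with no offset, 60 with no filter and 2 with the replicate block. The sign turned in 5 genes, none of them called. Fos was at 0.0104 with an offset of 64, 0.0179 with quantile normalization, 0.41 with array weights, 0.16 with the actin ratio and -0.22 to 0.42 with an array left out. Hnf4a was at -0.12 with quantile normalization, -0.42 with the mean of its probe sets, -0.0336 with array weights, -0.0052 with the actin ratio and -0.0261 to 0.0425 with an array left out. Slc34a1 was at -0.0704 with quantile normalization and -0.12 with the mean of its probe sets, Slc22a6 at 0.0039 with the actin ratio and -0.15 to 0.0939 with an array left out, and Ubd at -0.26 with the actin ratio and -0.15 to 1.05 with an array left out. The causes were not tested. Dim genes, with signals near the offset of 16, are measured least well.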
